A study of Mus musculus with 26 samples.

Results

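The 488 probe sets described here differed between ES1 to ES12 and ES13 to ES26 relative to the gene they are annotated to. For most of them the gene as a whole differed by less than 1 log2 unit. They were chosen from 91627 probe sets of 4579 well-expressed genes on an exon array, a chip that reads nearly every exon of a gene with its own small set of probes (a probe set). A gene's value was the median of the brighter 50% of its probe sets in an array, and the relative value of a probe set was its own log2 value minus the gene value of the same array. Genes qualified with 4 or more probe sets and a gene value above 8 in all 26 arrays. A probe set was taken when its mean relative value differed by 1.5 or more between ES1-ES12 and ES13-ES26 and the ranges of these 2 runs of titles did not overlap. These values chose the probe sets, so the differences between the runs are a description and carry no test. On the log2 scale a difference of 1 is a 2-fold change.

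The series holds 26 mouse samples of RNA, amplified in 2 rounds and measured on the Affymetrix Mouse Exon 1.0 ST array. The labels abbreviate the source as mouse ES EB, number each sample as an embryonic body cell, and give no genotype, treatment, time or age. ES1 to ES14 are labelled 129S2/SvPas and ES15 to ES26 C57BL/6, both inbred mouse strains. No label separates ES1-ES12 from ES13 and ES14, so the runs are runs of titles, and whatever else differed between them cannot be told apart from the title run.

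Most mouse genes make more than 1 transcript. Exons can be kept or skipped by splicing, and a gene can start or end its transcripts at several places, under the control of RNA-binding proteins such as the Rbfox, Mbnl, Ptbp, Khdrbs and Esrp families. On an exon array an exon used more in some samples shows as a probe set that leaves the level of its gene. A probe set that keeps its level while its gene changes gives the same picture. Other sources of such a picture are possible, and the source was not tested for any probe set. The probe sets' sequences and genome positions are not used here, so no exon, intron or UTR is named, and probe sets are given by the array's own numbers.

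Cell type markers differed between the runs. A marker was counted as higher or lower when its gene values did not overlap between the runs and their means differed by 1 or more. Over 18341 genes, 6.46% were higher and 5.59% lower in ES1-ES12 by this measure. All 11 measured granulocyte and myeloid markers were higher in ES1-ES12, where their mean level per array lay between 11.46 and 12.14, against 5.00 in ES13, 4.77 in ES14 and 4.55 to 6.43 in ES15-ES26. Of 6 mast cell markers 4 were higher there. Of 10 naive pluripotency markers 7 were lower in ES1-ES12 (mean level 5.35 to 6.00), against 8.66 in ES13, 7.81 in ES14 and 7.07 to 11.28 in ES15-ES26. Of 8 fibroblast markers 6 were lower and 1 was higher. By this measure 0 of 6 endothelial and 0 of 4 embryonic erythroid markers separated the runs, and 1 of 6 epithelial markers was lower. The median differences of these 3 lists were nonetheless -1.63, -3.37 and -3.06 in that order, lower in ES1-ES12. On this log scale no marker is at 0. By the mean levels of the myeloid and the pluripotency list, ES13 and ES14 stood with the arrays labelled C57BL/6 and apart from the other arrays of their label. The counts cannot show this, because a counted marker had to separate ES13 and ES14 from ES1-ES12. The mean mast cell level was 5.70 in ES13 and 6.00 in ES14. It was 4.97 to 5.82 in ES15-ES26 and 8.25 to 9.69 in ES1-ES12, so ES14 lay slightly above the C57BL/6 arrays there. These are bulk RNA samples, in which fewer cells of a type and less RNA per cell cannot be told apart, and the part of these cell markers in the probe set differences was not tested.

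The chosen probe sets were 0.533% of those eligible and came from 338 genes, 7.38% of the eligible genes. More of them, 348 (0.38% of eligible probe sets), were higher in ES1-ES12 relative to their gene, and 140 (0.153%) were higher in ES13-ES26. The median difference was 2.29 in the first set and 2.04 in the second, beside a median absolute difference of 0.12 over all eligible probe sets. Among those higher in ES1-ES12, 102 differed by 3 or more and 11 by 5 or more. Among those higher in ES13-ES26, 26 differed by 3 or more and 4 by 5 or more. At the threshold itself lay probe sets of Scpep1 at 1.5015, Rif1 at 1.5027 and Mfsd14b at -1.5032. Just outside it lay probe sets of Tpm1 at 1.4954, Fth1 at 1.4983 and Xpo1 at 1.4998. A further 175 eligible probe sets differed by 1.5 or more but had overlapping ranges. The counts depend on the gene value: its median over all probe sets gave 219 (of 52079 eligible) and its mean 147 (of 42008).

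The relative value can change because the probe set changed, because its gene changed, or both. In 331 of the 488 (67.8%) the probe set's own value differed by 1 or more between the runs while the gene value differed by less than 1. Those higher in ES1-ES12, 275 probe sets of 228 genes, went from a median level of 6.08 in ES13-ES26 to 8.66 in ES1-ES12, with a median gene difference of 0.02. The 56 higher in ES13-ES26, of 45 genes, went from 5.86 to 8.14. In another 74 (15.2%) the gene differed and the probe set did not, and for 57 of these the gene was the one higher in ES1-ES12. In 78 (16%) both differed, 51 in the same direction and 27 in opposite directions, and in 5 neither reached 1. A gene value difference of 1 or more was found for 69 of the 338 genes (20.4%), against 390 of all eligible genes (8.52%). The rule itself favours such genes, because a gene that differs brings in probe sets that stay level. The higher share is therefore built into the choice and is not a separate result.

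**Figure D1:**
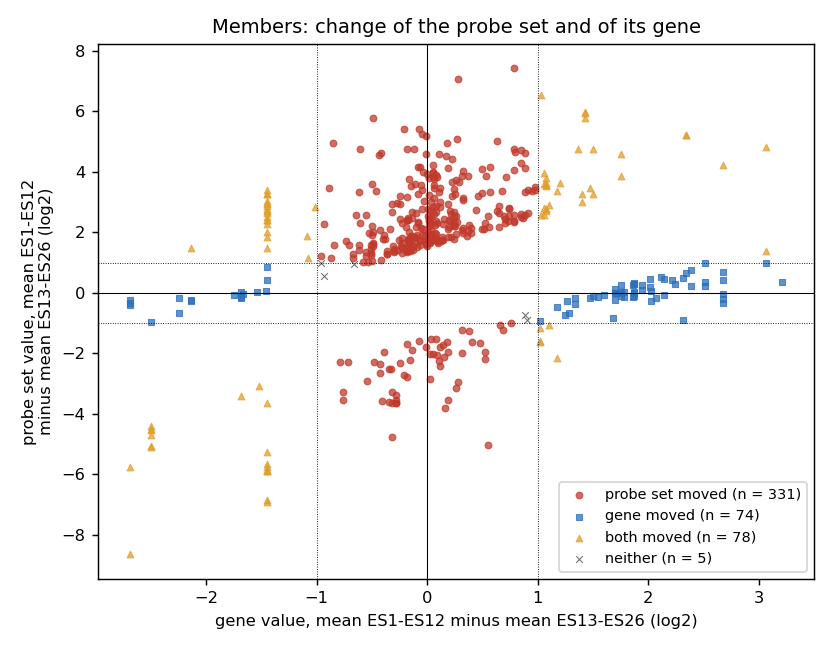
Each point is 1 of the 488 probe sets, with the difference in gene value between the means of ES1-ES12 and ES13-ES26 on the x axis and the difference in the probe set's own value on the y axis, both in log2 units. Dotted lines stand at 1 and -1, and most points (331) lie between the vertical lines and beyond the horizontal ones, where the probe set differed and its gene did not.

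Among the probe sets higher in ES1-ES12 with a steady gene, the largest difference belonged to Rplp0, a protein of the ribosomal stalk. Its probe set 4369920 lay between 13.05 and 13.45 (median 13.21) in ES1-ES12 and between 5.18 and 7.27 (median 6.00) in ES13-ES26. The gene value lay between 12.59 and 13.08 and between 12.34 and 12.77 in the same runs. The probe set was thus as bright as its gene in all 12 arrays of the first run and far below it in all 14 of the second, a relative difference of 6.81. A second Rplp0 probe set, 5592349, went the other way, at 8.92 to 10.10 in ES1-ES12 and 12.18 to 12.86 in ES13-ES26 (relative difference -3.23). Ribosomal protein genes have many near-identical copies in the genome, so which copy a probe set reads is uncertain.

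Gas5, a noncoding RNA that carries small nucleolar RNAs in its introns, had 6 chosen probe sets among its 19, all higher in ES1-ES12. The largest, 5552284, lay between 10.14 and 11.57 (median 11.20) in ES1-ES12 and between 2.28 and 5.39 (median 3.63) in ES13-ES26. Probe sets 5325479 and 5025059 had means of 7.69 and 7.41 in ES1-ES12 and of 2.94 and 3.35 in ES13-ES26. All 3 were below the median of the whole table, 5.43, in every array of the second run, while the gene value was 9.57 or more there. The other 3 were bright in both runs, with means of 11.18 to 12.16 and of 8.60 to 9.78. With the mean of all probe sets as gene value, their relative differences of 1.55 to 1.79 became 0.79 to 1.03. The gene value itself was 0.79 higher in ES1-ES12.

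The next probe sets are given by what their genes are known to do, 4 of them in RNA or DNA handling. In Fubp1, a protein that binds single-stranded DNA and RNA, probe set 4340427 lay between 10.91 and 11.84 (median 11.20) in ES1-ES12 and between 4.58 and 6.45 (median 5.43) in ES13-ES26, with a gene value 0.49 lower in the first run. In Thoc1, part of the THO complex of mRNA export, probe set 5112922 lay between 5.88 and 7.63 (median 7.27) against 1.76 to 3.65 (median 2.14). The Thoc1 probe set was thus above the table's median in all arrays of the first run and below it in all of the second. Rif1, which acts in replication timing and DNA break repair, had a probe set (5037048) at 7.02 to 8.36 (median 7.59) against 2.47 to 3.88 (median 3.05). Dhx36, a helicase of G-quadruplex RNA and DNA, had one (4879655) at 8.64 to 9.69 (median 9.15) against 3.47 to 5.78 (median 4.74). The ranges were apart by more than 3 units for each of these 4 probe sets on the relative scale, and none of the 4 gene values differed by 1 or more.

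A further 5 of the 12 largest differences toward ES1-ES12 were in genes of varied roles. In Map4k5, a kinase upstream of stress-activated kinases, probe set 5046782 lay between 6.26 and 8.06 (median 7.49) in ES1-ES12 and between 2.11 and 3.21 (median 2.46) in ES13-ES26. Its gene value was 0.85 lower in ES1-ES12, so the probe set and the gene differed in opposite directions. In Tmem87a, a membrane protein of the Golgi, probe set 5311812 lay between 8.26 and 9.50 (median 9.02) against 2.72 to 4.67 (median 3.55). In Kif5b, the heavy chain of conventional kinesin, probe set 5371916 lay between 7.43 and 8.61 (median 8.24) against 2.28 to 4.12 (median 3.11). Both genes were level between the runs, with differences of -0.21 and -0.04. Asph, whose locus makes a hydroxylase and the calcium-store proteins junctin and junctate, had probe set 4472440 at 8.72 to 10.54 (median 9.59) against 2.77 to 5.45 (median 4.66). Pcnp, a small nuclear protein, had probe set 5172792 at 8.46 to 9.74 (median 9.32) against 1.92 to 5.25 (median 3.89). The gene differences were -0.01 for Asph and -0.08 for Pcnp, the latter with the widest spread of the second run among these genes (SD 0.95, n = 14, on the relative scale).

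Acp1, a small protein tyrosine phosphatase known for isoforms that swap 1 exon for another, had chosen probe sets in both directions. Probe set 5038911 lay between 6.57 and 7.65 (median 7.25) in ES1-ES12 and between 1.81 and 4.06 (median 2.50) in ES13-ES26, and probe set 5289803 had means of 7.58 and 6.08. Against them, probe set 5166382 had means of 5.78 in ES1-ES12 and 8.58 in ES13-ES26, and probe set 5296877 of 6.81 and 8.50. The other 24 of its 28 probe sets stayed between -1.20 and 0.65 in relative difference, and the gene value differed by -0.18.

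The probe sets higher in ES13-ES26 with a steady gene were fewer. The largest belonged to Psmb5, a catalytic subunit of the proteasome, in which probe set 5037994 lay between 2.07 and 4.53 (median 3.81) in ES1-ES12 and between 7.56 and 9.55 (median 8.65) in ES13-ES26. The gene value was 0.55 higher in ES1-ES12, the opposite direction, and the relative difference was -5.61. Rps24, a protein of the small ribosomal subunit with exons long known to differ between tissues, had probe set 4561635 at 5.28 to 7.11 (median 6.44) against 9.06 to 11.15 (median 10.17). Rplp1, a partner of Rplp0 in the stalk, had probe set 4915825 at 6.98 to 8.00 (median 7.65) against 10.73 to 11.81 (median 11.15). Neither range came near the other, and the gene values differed by 0.16 and 0.19.

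The next 6 probe sets higher in ES13-ES26 were in genes of varied roles. In Uap1, which makes UDP-N-acetylglucosamine, probe set 5169172 lay between 1.72 and 4.66 (median 2.84) in ES1-ES12 and between 5.12 and 8.15 (median 5.99) in ES13-ES26. In Tsc2, a brake on the mTOR kinase, probe set 5151584 lay between 4.08 and 5.99 (median 5.53) against 7.70 to 9.57 (median 8.93). In Ect2, which acts in cytokinesis, probe set 4482826 lay between 3.36 and 5.58 (median 4.36) against 6.82 to 9.19 (median 7.79). The ranges of the 2 runs did not overlap for these 3 probe sets, and the lowest array of Uap1 in ES13-ES26 was still below the table's median. Zc3h11a, a zinc finger protein of mRNA export, had probe set 5134700 at 6.44 to 7.71 (median 7.24) against 10.22 to 10.86 (median 10.47). Arf1, a small GTPase of Golgi traffic, had probe set 5197914 at 8.20 to 9.49 (median 8.71) against 11.37 to 11.87 (median 11.64). Sptbn1, a spectrin of the membrane skeleton, had probe set 4636027 at 1.91 to 3.22 (median 2.24) against 3.90 to 7.10 (median 5.87). The last had its 2 ranges only 0.53 apart on the relative scale, where those of Arf1 and Zc3h11a were 2.09 and 2.24 apart.

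Mfap2, a protein of elastic microfibrils, and Id4, an inhibitor of basic helix-loop-helix factors, varied widely within ES13-ES26. Mfap2 probe set 5378975 lay between 1.79 and 3.83 (median 2.55) in ES1-ES12. In ES13-ES26 it ranged from 4.37 in ES26 to 10.71 in ES19, with 7.03 in ES13 and 7.10 in ES14. The gene value moved from 8.83 to 10.40 over the same arrays, so most of the range was the probe set's own. Id4 probe set 5559201 lay between 3.72 and 5.54 (median 4.40) in ES1-ES12 and between 6.18 in ES14 and 10.63 in ES26 (median 8.04). Id4 had 4 chosen probe sets among its 8, all higher in ES13-ES26, with means of 4.41 to 4.53 in the first run and 7.90 to 8.17 in the second. The 4 nearly equal profiles count as 1 event of the gene, not as 4 independent ones.

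**Figure D2:**
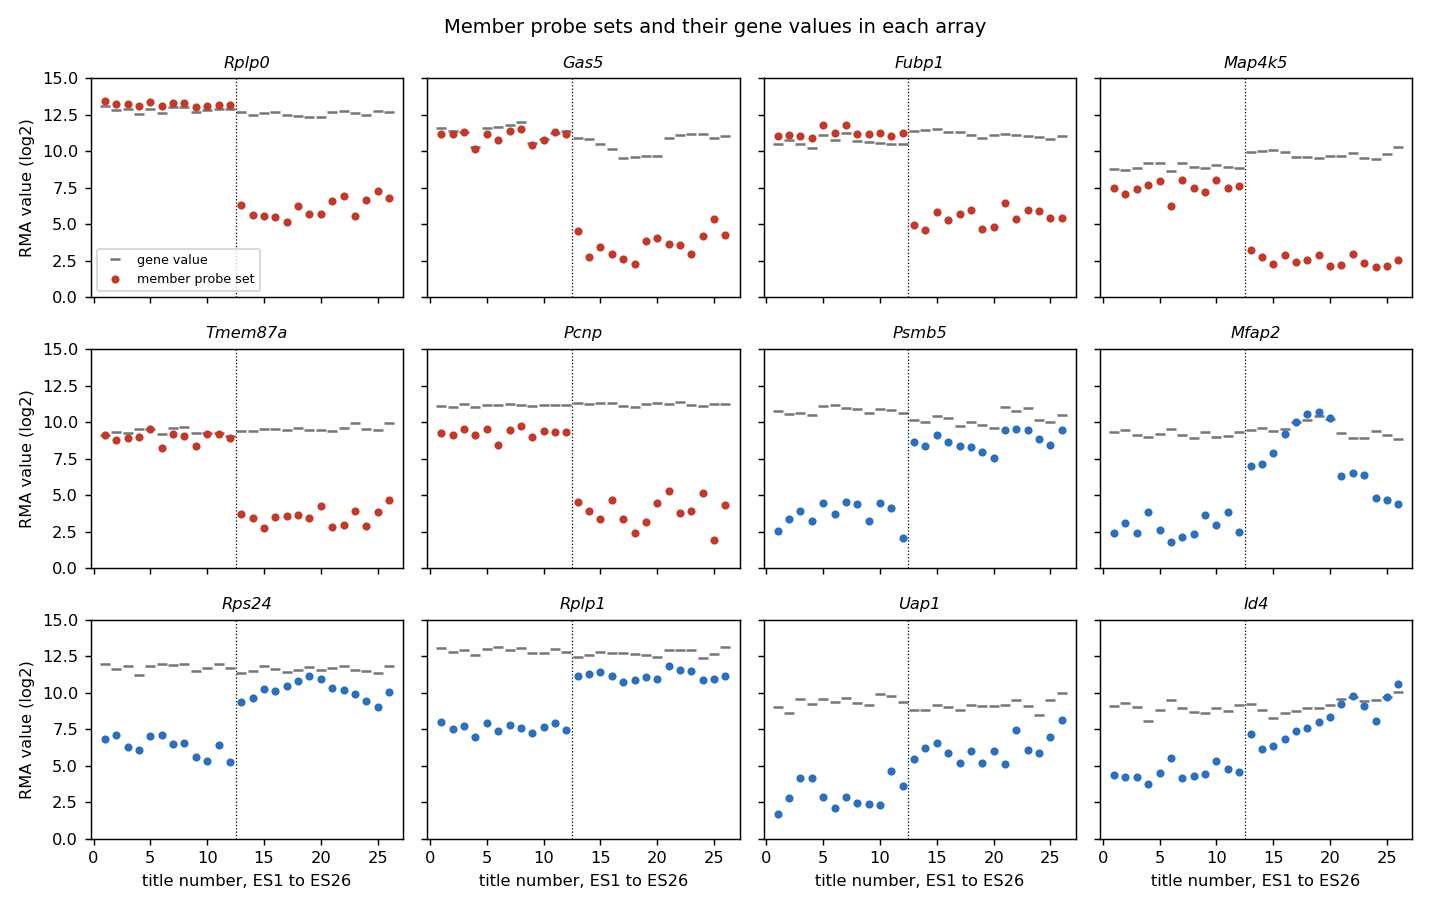
Each panel plots the RMA value (log2) of 1 chosen probe set (dots) and of its gene (grey dashes) against the title number of the array, for the 6 largest differences with a steady gene in each direction (red, higher in ES1-ES12; blue, higher in ES13-ES26). The dotted line parts ES12 from ES13, where the dots shift; the gene value differed by less than 1 between the runs in each panel, most in Map4k5 (-0.85) and Gas5 (0.79), and the Mfap2 probe set runs from 4.37 to 10.71 within ES13-ES26.

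A list of genes with exons reported to differ between cell types was checked next. It was drawn up with earlier results of these data known. Of its 125 genes 71 were eligible, and 13 of them (18.3%) held 22 chosen probe sets, beside 7.38% of all eligible genes. Per probe set this was 22 of 2230 (0.987%), beside 0.533%. Many genes of the list differed as a whole. By the measure used for markers, 30 of its 120 measured genes were lower and 6 higher in ES1-ES12. Over all genes these shares were 5.59% and 6.46%. A gene that differs can bring in probe sets that stay level, and that part of the 22 was not separated out. Tpm1 and Mprip held 5 and 4 of the 22. Tpm1, the tropomyosin gene with mutually exclusive exons, had the largest of all differences toward ES13-ES26. Its probe set 4404559 lay between 2.35 and 5.64 (median 2.86) in ES1-ES12 and between 11.37 and 12.51 (median 12.03) in ES13-ES26. The gene value was itself 2.69 lower in ES1-ES12, at 8.32 to 9.24 against 11.26 to 12.31. A second probe set, 4599174, lay between 3.42 and 5.31 against 9.09 to 11.59. Both therefore differed by more than the gene, by 5.97 and 3.08 further units. The 3 other chosen Tpm1 probe sets had nearly the same level in both runs, for example 7.96 to 8.40 against 8.14 to 8.59 for probe set 5060487, so they stood out only because the rest of the gene differed.

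Beside Tpm1 and Rps24, 4 more genes among the 12 largest probe sets of this list had a probe set that differed while the gene did not. Macf1, a giant linker of actin and microtubules, had probe set 5402099 at 5.01 to 6.62 (median 6.02) in ES1-ES12 and 2.24 to 3.97 (median 2.95) in ES13-ES26. Map3k7, the kinase TAK1, had probe set 5550079 at 7.63 to 8.79 (median 8.34) against 4.11 to 6.39 (median 5.81). Cltc, the clathrin heavy chain, had probe set 5188961 at 6.88 to 9.20 (median 8.36) against 5.07 to 6.87 (median 5.57). The Cltc ranges were only just apart, by 0.30 on the relative scale. Myo9b, an unconventional myosin, had probe set 5600050 at 4.70 to 7.14 (median 6.51) against 7.39 to 8.63 (median 8.13). In Cd47, the signal that restrains phagocytes, the case was the reverse: the gene was 2.67 higher in ES1-ES12 while probe set 5013658 had means of 12.07 and 11.40. Lrrfip1, an actin- and nucleic-acid-binding protein, had a gene 1.10 higher in ES1-ES12 and probe set 5165336 lower there, at 5.18 to 7.63 against 7.13 to 8.54. The remaining genes of the list with a chosen probe set were Bin1, Itgb1, Mprip, Snap23 and Spag9.

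The other lists, of cell functions, are counts beside the same 7.38%. Actin, myosin and adhesion genes had a chosen probe set in 10 of 56 (17.9%), among them the talin gene Tln1, the paxillin gene Pxn and the formin gene Diaph1. Kinases and signalling genes had one in 5 of 39 (12.8%), ribosomal and translation genes in 4 of 32 (12.5%), and genes of endocytosis and membrane traffic in 4 of 36 (11.1%). Cell metabolism enzymes (3 of 41, 7.32%) and transcription and chromatin genes (2 of 35, 5.71%) lay near that share. Per probe set, the share chosen was 1.14% for actin, myosin and adhesion genes, 0.772% for ribosomal and translation genes, 0.547% for kinases and signalling genes, 0.454% for metabolism enzymes, 0.45% for endocytosis and traffic genes and 0.362% for transcription and chromatin genes, beside 0.533% of all eligible probe sets. These lists share genes with each other and with the list of reported exons, and were not tested. Of 88 measured actin, myosin and adhesion genes, 25 were lower and 7 higher in ES1-ES12 by the measure used for markers. Over all genes 5.59% were lower and 6.46% higher, and a gene that differs can bring in probe sets that stay level.

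Most genes had a single departing probe set. That was so for 263 of the 338 genes, which held a median of 21 other probe sets, and in 154 of the 263 (58.6%) no other probe set differed by 1 or more. All 338 genes had a median of 22 probe sets, against 17 over eligible genes. Of the 75 genes with 2 or more, 58 had them all in 1 direction and 17 in both directions. In Acp1, Asph, Lrrfip1, Mtm1, Odc1, Rplp0, Rplp1, Tmem87a, Ttc13 and Zc3h11a, which are among the 17, the probe sets' own values also differed in opposite directions by more than 1. These own differences ran from -3.56 to 2.94 in Rplp1 and from -2.71 to 5.43 in Tmem87a.

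Among the 11 genes with 4 or more, the forms differed. Sh2b2, an adaptor of receptor kinases, had 5 of 18 probe sets chosen, with means of 8.03 to 10.17 in ES1-ES12 and 4.24 to 7.40 in ES13-ES26, and a gene value 1.08 higher in the first run. Eprs, which joins glutamate and proline to their tRNAs, had 4 of 47, each 1.85 to 3.00 higher in ES1-ES12 with a gene difference of 0.03. Hmga2, a chromatin protein of embryonic cells, had 7 of 13: its gene value was 2.50 higher in ES13-ES26, and 6 probe sets differed by a further 1.90 to 2.61. In Eprs and Hmga2 these probe sets lay beyond the others of the gene, whose relative differences were at most 1.01 and 0.85; in Sh2b2 a probe set that was not chosen reached 2.38.

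In H13, the intramembrane protease signal peptide peptidase, and in Pim1, a kinase induced by cytokines, the gene value differed and most chosen probe sets did not. All 6 chosen of the 30 in H13 had nearly equal means in the 2 runs (for example 7.06 and 7.16), while the gene value was 1.87 higher in ES1-ES12. In Pim1, 4 of the 5 chosen of 15 had means of 3.33 to 6.21 in ES1-ES12 and 2.91 to 6.56 in ES13-ES26, beside a gene 2.67 higher in ES1-ES12. The means of 3 of these 4 were below the table's median, 5.43, in both runs, so they may not be above background; the same held for 1 of the 6 in H13 and for 13 of all 74 probe sets of this kind. The other, 5404886, differed by more than the gene, with means of 11.68 and 7.44. Mprip, a scaffold of myosin phosphatase, had 1 of each kind within 4 of 46. Probe set 5177395 had means of 7.63 and 11.05, beyond a gene value 1.68 lower in ES1-ES12, and the other 3 stayed between 6.10 and 7.37 in both runs.

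The gene with the most was Mtm1, a phosphoinositide phosphatase, with 29 of the 61 probe sets under its symbol. Of these 9 were higher in ES13-ES26, with a median level of 4.22 in ES1-ES12 and 10.02 in ES13-ES26. The other 20 were higher in ES1-ES12, with medians of 8.57 and 5.35, and the 32 not chosen had medians of 7.25 and 7.67. The gene value, 1.45 lower in ES1-ES12, is thus the middle of blocks that went in opposite directions. Whether the 61 probe sets all belong to 1 gene is uncertain, and 19 of the 29 had a range of 2 or more within ES13-ES26.

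**Figure D3:**
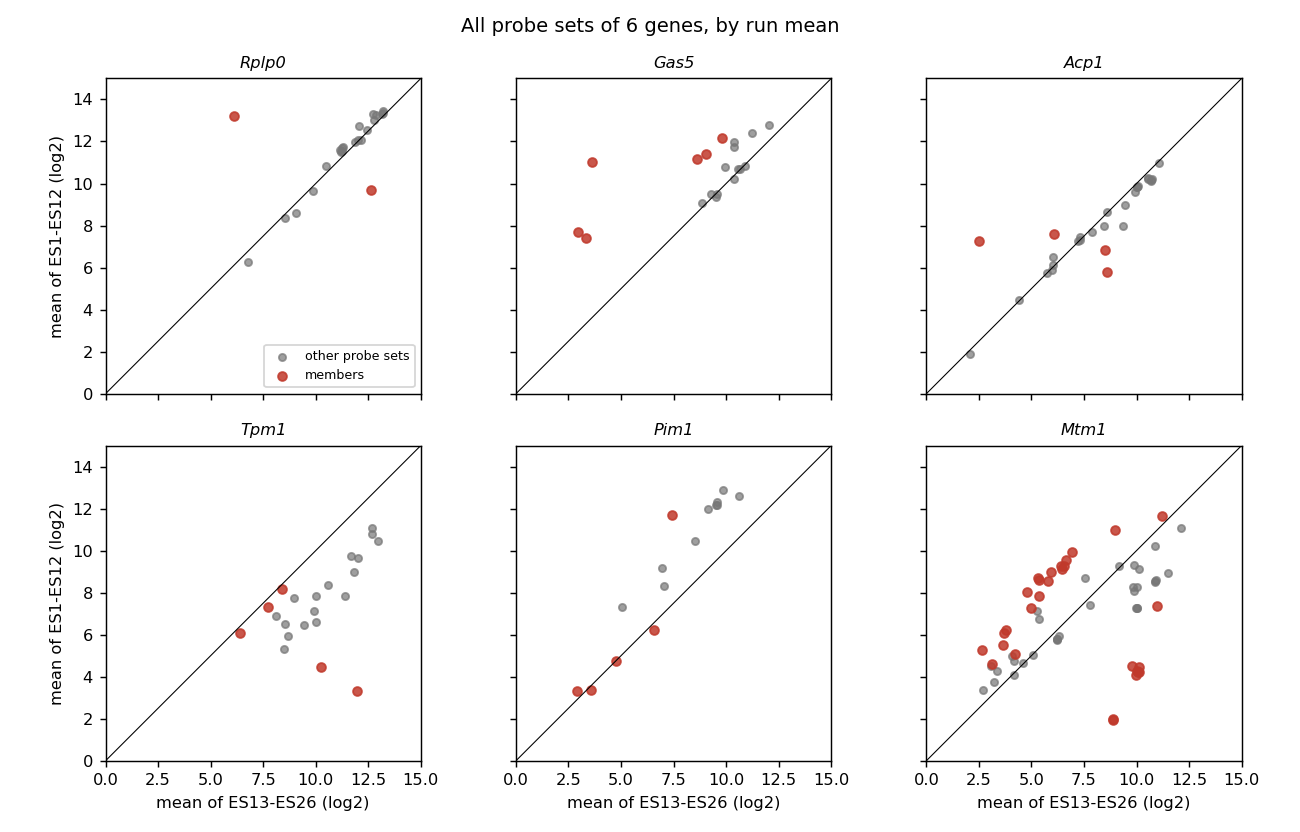
Each panel plots every probe set of 1 gene by its mean RMA value (log2) in ES13-ES26 (x axis) and in ES1-ES12 (y axis), chosen probe sets in red and the others in grey, with the line of equal values. In Rplp0 and Acp1 the grey points follow the line and the red ones leave it; in Tpm1 and Pim1 the grey points leave the line together and some red points stay on it; in Mtm1 red points form blocks on both sides.

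The level in the lower run bears on how a difference can be read. For 125 of the 348 probe sets higher in ES1-ES12 (35.9%) and for 54 of the 140 higher in ES13-ES26 (38.6%), the mean of the lower run was below 5.43, the median of all values in the table. Among eligible probe sets, 7.51% were that dim in at least 1 run. For Zc3h11a, Arf1 and the second Rplp0 probe set, every array of both runs was above that level. No background signal was part of the table, so a dim value is a bound of unknown height and the differences to it are not ratios of RNA amounts.

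The spread within each run was larger for the chosen probe sets than in general. The median SD of the relative value was 0.32 in ES1-ES12 (n = 12) and 0.46 in ES13-ES26 (n = 14), against 0.18 and 0.20 over eligible probe sets. Eligible probe sets below the table's median in at least 1 run had 0.51 and 0.52. The median gap between the 2 ranges was 0.91, with 221 probe sets at a gap of 1 or more and 78 under 0.25. A range of 2 or more within a run was found for 46 probe sets in ES1-ES12 and for 141 in ES13-ES26. Within ES1-ES12, a probe set of the glycolysis gene Pgk1 (5586321) ranged from 7.65 in ES5 to 13.49 in ES1, against 5.22 to 6.98 in ES13-ES26. A probe set of the chemokine Cxcl3 (5440871) ranged from 6.06 in ES4 to 11.37 in ES12, against 2.11 to 4.77. Both were singled out after their values were seen, as examples of spread within the first run.

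ES13 and ES14, which share the strain label of ES1-ES12, lay with the C57BL/6 arrays at these probe sets. Each array was placed between the run means of every chosen probe set, with 0 for ES13-ES26 and 1 for ES1-ES12. The median place was 0.94 to 1.03 for the 12 arrays of ES1-ES12, the lowest in ES6, and -0.02 to 0.04 for ES15-ES26. It was -0.02 in ES13 and -0.04 in ES14. Both arrays entered the rule as part of the second run, whose range could not overlap that of ES1-ES12 at any chosen probe set. That ES13 and ES14 lie apart from ES1-ES12 is therefore fixed by the choice. When the rule was applied without ES13 and ES14 it chose 521 probe sets, 478 of them among the 488. The place of ES13 and ES14 at those 521 was not measured.

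**Figure D4:**
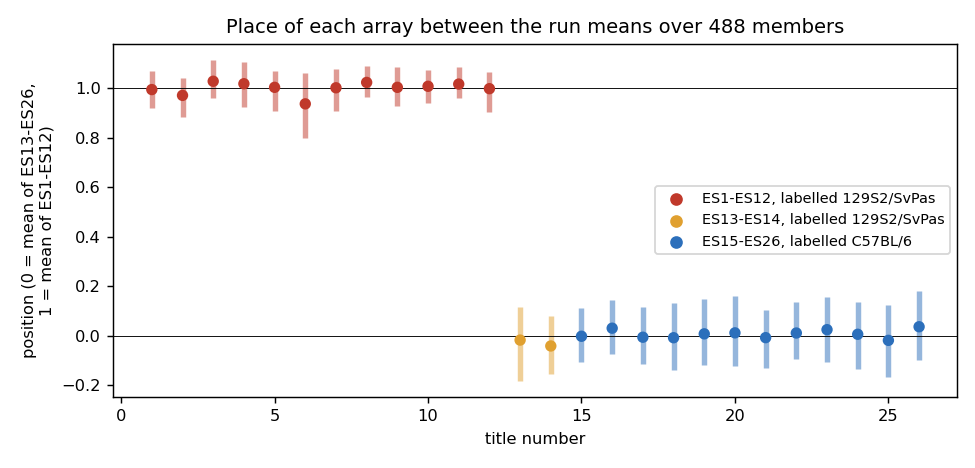
Points give, for each array (x axis, title number), the median place over the 488 probe sets between the mean of ES13-ES26 (0) and that of ES1-ES12 (1), and bars span the 25th to the 75th percentile. The arrays ES13 and ES14, labelled 129S2/SvPas, lie at -0.02 and -0.04, near the arrays labelled C57BL/6 (-0.02 to 0.04) and far from ES1-ES12 (0.94 to 1.03). The rule that chose the probe sets fixed that ES13 and ES14 lie apart from ES1-ES12.

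The only labelled comparison that does not use the contrast of the rule is the strain label within ES13-ES26, 2 arrays labelled 129S2/SvPas (ES13, ES14) against 12 labelled C57BL/6. limma on the relative values of all eligible probe sets, with Benjamini-Hochberg adjustment over all of them, called 0 of the 488 at an adjusted p of 0.05 and 1 of 91627 (0.00109%). At an unadjusted p of 0.05, 58 of the 488 (11.9%) and 6.38% of all eligible probe sets passed. The median absolute difference was 0.28 among the 488 and 0.11 over all. The smallest limma adjusted p among the 488 was 0.282, for a probe set of D17H6S56E-5 that was 1.86 ± 0.30 (SE) higher in the arrays labelled 129S2/SvPas. Next came Macroh2a1, a variant histone, at -0.94 (limma adjusted p = 0.387), and Cast, the calpain inhibitor calpastatin, at 2.49 ± 0.51 (limma adjusted p = 0.402). Of the 488, 48 differed by 1 or more in either direction. No such count was made over all eligible probe sets, so 48 is not read as an excess. The 488 also varied more within ES13-ES26, with a median SD of 0.46 against 0.20 over eligible probe sets. The 1 probe set called belonged to Foxo4, a forkhead transcription factor, and is not among the 488; it was -0.91 ± 0.09 (SE), limma adjusted p = 0.00846, and it was not called without ES13 (0 calls). The labels do not say whether cultures or animals were separate, so these p-values measure the spread between samples, which may be technical, and with 2 arrays on 1 side that spread is poorly known.

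The RNA-binding proteins that set exon choice were examined as a list of 76 measured genes. Their gene values use the contrast of the rule and are described only. With non-overlapping ranges and a difference of 1 or more, 3 of the 76 were higher and 6 lower in ES1-ES12, beside 6.46% and 5.59% of 18341 genes. Their median difference was -0.20, against 0.00 over all genes. Lower in ES1-ES12 was Rbfox2, which promotes or blocks exons from nearby sites, at 7.21 to 8.11 (mean 7.62) against 10.27 to 10.93 (mean 10.54). Rbpms2, an RNA-binding protein of smooth muscle, had means of 7.31 and 10.63, and Khdrbs3, a STAR-family protein, of 5.69 and 8.56. Esrp1, the epithelial splicing regulator, and Elavl2, of the Hu family, had means of 4.47 against 7.21 and 5.15 against 7.82, with overlapping ranges. Esrp1 ran from 4.47 to 9.39 within ES13-ES26, and was 8.76 in ES13 and 6.90 in ES14.

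Higher in ES1-ES12 were Mbnl3 and Mbnl1, of the muscleblind family, and Ptbp3, a relative of the polypyrimidine-tract protein. Mbnl3 lay between 9.60 and 11.16 (mean 10.18) against 7.39 to 9.11 (mean 7.97). Mbnl1 lay between 11.33 and 11.78 (mean 11.53) against 7.78 to 11.14 (mean 9.84), with its lowest value in ES13. Ptbp3 lay between 12.23 and 12.51 (mean 12.37) against 10.35 to 11.32 (mean 10.75), the widest gap of the 3. Rbm47 (means 8.23 and 7.16) and Rbm38 (10.34 and 9.80) overlapped between the runs. Within ES13-ES26 limma on gene values called 0 of the 76 for the strain label at an adjusted p of 0.05, beside 1 of 18341 genes (0.00545%), Mixl1, a homeobox gene of the primitive streak, at 3.93 ± 0.45 (SE), limma adjusted p = 0.00485. At an unadjusted p of 0.05, 9 of the 76 and 1814 genes (9.89%) passed. The smallest limma adjusted p among the 76 was 0.138, for Mbnl1, at -1.80. The 1 gene called became 0 without ES13 and 5 without ES14.

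**Figure D5:**
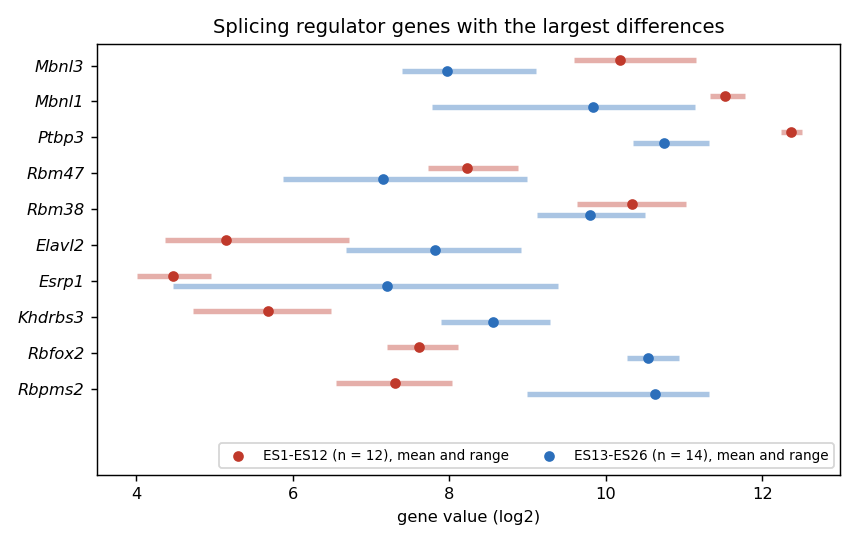
Points give the mean gene value (log2, x axis) of ES1-ES12 (red, n = 12) and ES13-ES26 (blue, n = 14) and bars the lowest to the highest array, for the 5 splicing regulator genes with the largest difference in each direction. Mbnl3, Mbnl1, Ptbp3, Khdrbs3, Rbfox2 and Rbpms2 have bars that do not overlap.

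Some regulators held chosen probe sets themselves. Of the 51 eligible regulator genes 5 (9.80%) had 6 chosen probe sets, beside 7.38% of all eligible genes; per probe set this was 6 of 1318 (0.455%), beside 0.533%. They were Hnrnpc, Srsf1 and Rbm39, core splicing proteins, Rbms1, and Zfp638, a zinc finger protein bound to RNA. The gene value of Srsf1 differed by -0.40 between the runs.

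Some genes with chosen probe sets were neighbours in the genome. In the gene order of the RefSeq table (assembly GRCm38.p6), restricted to 4558 eligible genes, 83 of 337 genes with a chosen probe set (24.6%) stood next to another such gene, against 555 of the 4221 other genes (13.1%). For the 228 genes whose probe set was higher in ES1-ES12 with a steady gene, 48 (21.1%) stood next to another of the same kind, against 384 of 4330 (8.87%). For the 44 genes of the opposite direction the shares were 9.09%, only 4 genes, against 83 of 4514 (1.84%). Runs of 3 or 4 genes in a row were taken over chosen probe sets of any kind and direction. Runs in which every gene had a probe set higher in ES1-ES12 with a steady gene were Rab3gap2, Iars2 and Eprs, then Ccny, Thoc1 and Usp14. So were Tmem87a, Zfp106 and Snap23, and Saraf, Tnks and Eri1. The other runs were Mtor, Exosc10, Srm and Tardbp, then Cox6a1, Pxn, Rplp0 and Gcn1, then Prmt5, Psmb5 and Acin1. Further ones were Larp1, Cnot8 and Gemin5, and Nuf2, Hsd17b7 and Uap1. Some of these other runs mixed directions: the Psmb5 probe set was higher in ES13-ES26 and those of Prmt5 and Acin1 in ES1-ES12. Of the largest single differences, those of Thoc1 and Tmem87a lay in runs with a steady gene and the same direction. Those of Rplp0, Psmb5 and Uap1 lay in the other runs. These shares were not tested.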

How the data were processed

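The deposited table holds log2 values per probe set, which the authors made with Affymetrix Expression Console, per the submitters' processing notes, which give no version. The labels name RMA, whose values are by convention on base 2, and the range of 0.831 to 15.6 fits that base. The table has 631748 probe sets with 0 missing values, and the array medians lie between 5.32 and 5.51. Arrays give no read depth, so the number of arrays limits the precision.

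The platform annotation gave 1 symbol for 306069 probe sets (48.4%). RefSeq (GRCm38.p6) held 17747 of the 21757 symbols as current; a synonym with a single match replaced 3725 more, and 285 were left as annotated. An update that would join 2 annotated genes was not made; this was decided after a first run had joined such genes. Gene values, relative values and the rule are as the report gives them. Strain labels within ES13-ES26 were compared with limma 3.58.1 under R 4.3.3, by lmFit, eBayes and Benjamini-Hochberg adjustment (two-sided, without a trend for probe sets and with one for genes).

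The probe sets, lists, tests and naming rule were chosen with earlier results of these data known. Named were the 12 largest differences in each direction with a steady gene (1 per gene), genes with 4 or more chosen probe sets, up to 12 chosen probe sets of reported cell-type exon genes, the 5 largest regulator differences each way, and the 3 probe sets nearest the threshold on each side. The rule and limma were checked on simulated data before use. Alternatives covered the gene value, the minimums, dim probe sets, normalization and left-out arrays. The count for 1 further gene list is not reported here.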

Additional observations from a re-analysis of the deposited data

How the results depend on the processing

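The number of chosen probe sets depends on the rule's settings. Against 488 (348 higher in ES1-ES12, 140 higher in ES13-ES26, 331 with the probe set and not the gene differing), the median of all probe sets as gene value gave 219, 165, 54 and 181, and the mean of all gave 147, 111, 36 and 122. A gene minimum of 7 gave 938, 574 and 364, and 9 gave 213, 164, 49 and 179. A minimum difference of 1 gave 937, 654, 283 and 534, and 2 gave 287, 214, 73 and 206. Allowing overlap gave 228 higher in ES13-ES26. The stricter or looser settings act by their construction; for the other gene values the cause was not tested. Leaving out 1 array at a time (chosen after seeing the data, as was joining updated symbols, 501) gave 462 to 523, 329 to 368, 132 to 162 and 328 to 354, with 449 to 485 of the 488 kept. Of 3571 values of named probe sets under alternatives, 3557 stayed within 1 SD, 14 moved and 0 changed sign. Many of these alternatives could hardly move a value. The minimums and the overlap setting do not enter it, and leaving out 1 array changes a run mean little. Only probe sets still eligible under an alternative had a value there. The count is therefore no measure of how robust the values are.

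For the strain label within ES13-ES26, the 1 probe set called became 0 with the gene value as median or mean of all, without the probe set itself, with a gene minimum of 9 or with limma's treat at a minimum difference of 1, and 7 with a gene minimum of 7. Leaving out ES13 or ES14 gave 0 to 1 probe sets, 0 without ES13, and 0 to 5 genes: 0 without ES13, 5 without ES14. A lone array was then taken to vary like the others. The 1 gene called became 5 with the median or mean of all probe sets and 0 without the dimmer 50% of genes. Of the 173 to 488 chosen probe sets that each alternative tested, 0 were called, with a smallest limma adjusted p from 0.125 to 1. No paired analysis was possible because the titles number the arrays without repeating a number across groups.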
